A study of Mus musculus with 6 samples.

Results

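DNA replication genes and nucleotide synthesis genes were examined as a module of 47 genes in mouse germline stem cells. Members were chosen by name, from the proteins that license origins, open and copy DNA, and make deoxynucleotides, and all 47 had a row among the 22432 genes of the authors' deposited table. The 6 sequenced samples were male germline stem cells in culture (cells that renew themselves and can give rise to sperm), kept on DR4 mouse embryonic fibroblast feeders and sorted for THY1 with or without CDH1, which is E-cadherin. The 3 CDH1+/THY1+ and the 3 CDH1-/THY1+ samples came from cultures that carry the same names in both populations: RP7 (8 weeks of age, with the strain label OCT4/GFP; Dox-OCT4), RP5 (19 days, the same strain label) and WT1 (C57BL/6, 5 weeks), all at passage 6 to 8. The labels do not say whether doxycycline was given, whether feeder cells were removed before sorting, or whether the 2 populations of a culture name were sorted from the same dish. Whether the authors' test took the culture into account is not stated. The spread that the p-values measure may therefore hold differences in culture, age and strain label, and may in part be technical.

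The values were the authors' own comparison and not values per library. A level is the mean normalised count over all 6 libraries, that is, reads scaled for depth. A difference is CDH1+/THY1+ over CDH1-/THY1+ as a log2 fold change, with the standard error (SE) of the authors' DESeq2 test, so that 1 means 2-fold higher. The depth of each library and the SD within each population are unknown, and the mean counts of all rows summed to 16900379. The direction rests on the name of the table, since Cdh1 was not analysed here, and it was not tested otherwise. In this direction 15 of 16 germ cell markers lay below 0 and all 18 fibroblast markers above 0. With the order of the populations reversed, every rise and fall below would change places. A gene was called, and only then is it said to have risen or fallen, at an adjusted p under 0.05. In bulk RNA, a change in the number of cells in S phase and a change in RNA per cell cannot be told apart.

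Replication is prepared in G1, when the origin recognition complex (ORC), Cdc6 and Cdt1 load the ring of Mcm2 to Mcm7 onto DNA. This step is called licensing, and geminin blocks it after S phase starts. Kinases and the factors Cdc45, GINS and Mcm10 then turn the ring into the active helicase, and polymerases alpha, delta and epsilon copy the strands with the sliding clamp PCNA. Ribonucleotide reductase, thymidylate synthase and thymidine kinase supply the building blocks. Many of these genes are classical targets of E2F transcription factors, which are active around the start of S phase.

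Of the 47 members, 11 rose and 6 fell in CDH1+/THY1+ cells, while 30 did not pass the test, in the authors' deposited table. This is 36.2% of the members, beside 33.5% of 19211 genes tested. All 47 members had a mean count of at least 100, and among the 11133 tested genes with such a level 44.3% were called. Higher calls made up 23.4% of the members, 17.1% of all tested genes and 22.6% of those with such a level. Lower calls made up 12.8%, 16.4% and 21.7%. Under the stricter Benjamini-Yekutieli adjustment 7 of the 17 calls held, those of Rrm2, Gins2 and Pold2 (higher) and of Rpa2, Pole, Fen1 and Prim2 (lower), and the calls of Orc5, Gmnn, Mcm10, Cdc7, Pcna, Rfc4, Pola1, Pole2, Rpa3 and Tyms were lost. The share of members called was near that of all tested genes and below that of genes at their level. The differences of the members were small: their median log2 fold change was 0.16, beside 0.01 over all rows and 0.03 over rows whose mean count was 100 or more, and 39 of 47 lay within 1.5-fold of equality. Calls of at least 1.5-fold covered 8 members (17.0%), beside 25.9% of all tested genes and 31.2% of those at that level.

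By role, origin licensing had 2 of 15 members higher and 0 lower (13.3% called), helicase activation and polymerases had 7 of 28 higher and 6 lower (46.4%), and nucleotide supply had 2 of 4 higher and 0 lower (50%). These shares stand beside the 33.5% of all tested genes and 44.3% of those at the members' level, and the differences between the roles were not tested. At an unadjusted p under 0.05 of the authors' DESeq2 test, 0 licensing genes and 1 nucleotide supply gene (Rrm1) were lower, and the Benjamini-Yekutieli adjustment called 0 lower in both groups. Standard errors of the members ran from 0.13 to 0.25, and ranked against the 200 genes of nearest mean count they had a median percentile of 77.5, which is larger than for most genes of their level.

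**Figure D1:**
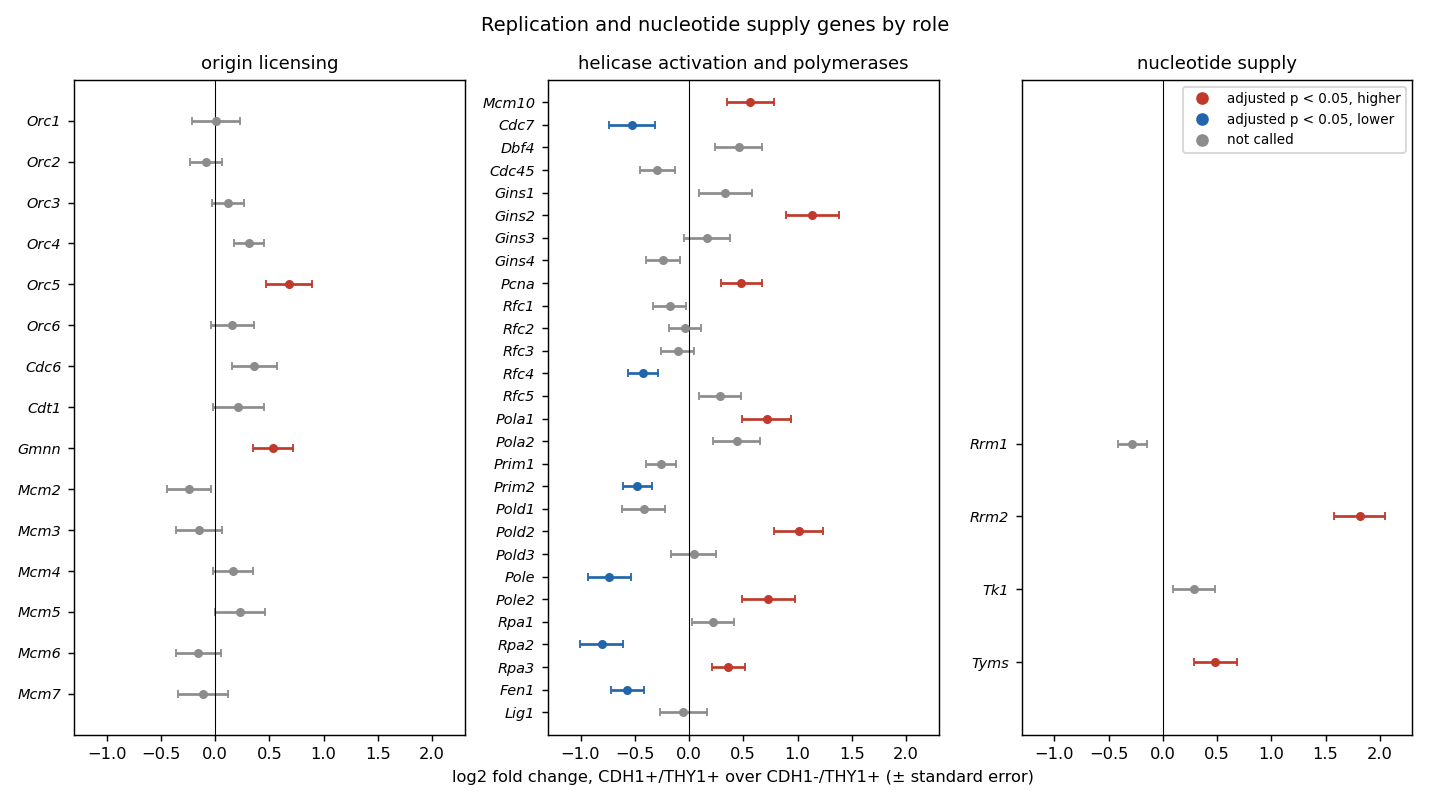
Difference of CDH1+/THY1+ from CDH1-/THY1+ cells, as log2 fold change, for the 47 members in 3 panels by role. Points are the values of the authors' deposited table and bars their standard errors; red points were called higher, blue points lower and grey points were not called. Rrm2, at 1.81, lies far to the right of every other member, and the MCM ring genes all lie within 0.25 of 0.

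Promoter sequences are shown for members on which the results turn, since E2F-type sites are the promoter element these genes are best known to share. RefSeq promoters (GRCm38.p6, 250 bases before to 50 bases after a gene's start) were found for 39 of the 47 members; Gins1, Gins2, Gins4, Gmnn, Mcm4, Pole, Prim2 and Rfc2 had no entry. A script searched both strands for 5 E2F-type motifs, TTTGGCGC, TTTCCCGC, TTTGGCGG, TTTCGCGC and TTTGCCGC, and matches on opposite strands can overlap. At least 1 was present for 18 of 39 members (46.2%), beside 3.18% of 27025 genes with a promoter entry and 6.18% of the 8740 of these whose mean count was 100 or more. Examples are shown for 4 licensing genes without a call (Mcm5, Mcm6, Orc1 and Cdc6) and for Pola1, a polymerase gene that rose. In the stretches below, written 5′ to 3′ on the gene's strand and ending before its start, capitals mark the E2F-type matches:
Mcm5, chr8:75109341-75109382, plus strand: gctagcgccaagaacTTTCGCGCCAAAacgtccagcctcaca
Mcm6, chr1:128359730-128359830, minus strand: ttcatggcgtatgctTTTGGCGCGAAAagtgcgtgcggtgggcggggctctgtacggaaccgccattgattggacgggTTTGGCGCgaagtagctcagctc
Orc1, chr4:108579412-108579449, plus strand: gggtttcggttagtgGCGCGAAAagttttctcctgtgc
Cdc6, chr11:98907998-98908035, plus strand: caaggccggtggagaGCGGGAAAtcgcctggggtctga
Pola1, chrX:93632271-93632308, minus strand: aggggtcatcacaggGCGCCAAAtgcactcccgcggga

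In Mcm5 and Mcm6 a match on each strand overlaps the other, and the pair begins 153 and 110 bases before the start. The matches fell mostly in genes without a call: 16 of 26 such members with a promoter entry held at least 1, against 2 of 9 that rose (Pola1 and Pole2) and 0 of 4 that fell. No match in Rrm2 says only that these letters are not in its window. Its promoter, and those of Pcna and Pold2, which also rose, hold the box CCAAT, in capitals here on either strand:
Rrm2, chr12:24708189-24708223, plus strand: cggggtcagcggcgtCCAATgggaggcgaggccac
Pcna, chr2:132253248-132253282, minus strand: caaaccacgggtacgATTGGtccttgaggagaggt
Pold2, chr11:5878284-5878318, minus strand: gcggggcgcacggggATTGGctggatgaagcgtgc

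By call, CCAAT was found for 6 of 9 members that rose, 16 of 26 without a call and 1 of 4 that fell. In all it was found for 23 of 39 members (59.0%), 41.1% of all genes with an entry and 43.8% of those whose mean count was 100 or more. The mitotic promoter motif TTTGAA was found for 7 of 39 members (17.9%), beside 20.2% of all genes and 13.8% of those whose mean count was 100 or more. A match is a stretch of letters and not evidence of a bound factor.

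Most licensing genes were not called: 13.3% were, beside 33.5% of all tested genes and 44.3% of those at the members' level. The 6 genes of the MCM2-7 ring, the core of the replicative helicase, were among the most abundant members, with levels from 4830 to 7351 mean normalised counts in the authors' deposited table. Per kilobase of exon their levels ran from 896 for Mcm2 to 1575 for Mcm6, beside a median of 382 over all members. None of the 6 was called by DESeq2 in the authors' deposited table, and none had an unadjusted p under 0.05 either; the Benjamini-Yekutieli adjustment likewise called 0. Mcm2, Mcm3, Mcm6 and Mcm7 stood at -0.24 ± 0.20, -0.15 ± 0.22, -0.15 ± 0.21 and -0.11 ± 0.23 (log2 ± SE) in the authors' deposited table. Mcm4 and Mcm5 stood at 0.17 ± 0.19 and 0.23 ± 0.23 there. The 95% interval of the Mcm5 difference reached from 0.856-fold to 1.61-fold, and that of Mcm2 from 0.645-fold to 1.11-fold. A 2-fold difference lay outside the interval of all 6 ring genes. Ranked in the same way as above, their standard errors had a median percentile of 85.5.

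The origin recognition complex, which marks the sites where the ring is loaded, had 1 called gene of 6. Called genes made up 33.5% of all tested genes and 44.3% of those at the members' level. Orc5, an ATP-binding subunit of the complex, rose by 1.61-fold (log2 0.68 ± 0.21, DESeq2 adjusted p = 0.00575) in the authors' deposited table. Its mean count of 584 was the lowest of the 6. Orc4 stood at 0.32 ± 0.14 with an adjusted p of 0.0628 by DESeq2, just outside the threshold in the authors' deposited table. Orc6, Orc3 and Orc1 had 0.16 ± 0.20, 0.12 ± 0.15 and 0.01 ± 0.22, and Orc2 -0.08 ± 0.15, in the authors' deposited table. The range over the complex was 0.76 on the log2 scale, against 0.47 over the ring.

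Among the 3 loading factors only Gmnn was called, beside 33.5% of all tested genes and 44.3% of those at the members' level. Gmnn encodes geminin, the inhibitor that binds Cdt1, and rose by 1.44-fold (log2 0.53 ± 0.18, DESeq2 adjusted p = 0.0151) in the authors' deposited table. Its partner Cdt1 had 0.21 ± 0.23 (DESeq2 adjusted p = 0.523) and the ATPase gene Cdc6 0.36 ± 0.21 (0.174) in the authors' deposited table. All 3 values lay above 0. The difference between Gmnn and Cdt1 was not tested, because no values per library were used.

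Of 4 genes that fire origins, 1 fell and 1 rose, beside 33.5% called of all tested genes and 44.3% at the members' level. Cdc7, the kinase that phosphorylates the loaded ring, fell by 0.53 on the log2 scale (SE 0.21, DESeq2 adjusted p = 0.0382) in the authors' deposited table. Dbf4, the subunit that activates this kinase, had 0.46 ± 0.22 without a call (DESeq2 adjusted p = 0.0851) in the authors' deposited table. Mcm10, a factor needed for the ring to start unwinding, rose by 1.48-fold (log2 0.56 ± 0.22, DESeq2 adjusted p = 0.03) in the authors' deposited table. Cdc45, a helicase subunit, had -0.29 ± 0.16 without a call (0.146 by DESeq2) in the authors' deposited table.

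GINS joins Cdc45 on the ring. Of its 4 subunit genes 1 was called, beside 33.5% of all tested genes and 44.3% of those at the members' level. Gins2 rose by 2.20-fold (log2 1.14 ± 0.24, DESeq2 adjusted p = 2.63e-05, 95% interval 1.58-fold to 3.06-fold) in the authors' deposited table. Gins1, Gins3 and Gins4 had 0.33 ± 0.24, 0.17 ± 0.21 and -0.24 ± 0.16 in the authors' deposited table, none of them called. Per kilobase of exon Gins4 had the highest level of the 4, 870, and Gins3 and Gins2 the lowest, 79.3 and 91.4. The exon model of Gins2 (chromosome 8, start 120578633) shares 2758 bases with Gse1 on the opposite strand. Gse1 fell to -0.93 ± 0.19 (DESeq2 adjusted p = 7.96e-06) in the authors' deposited table. No source used here says whether reads were counted by strand, and reads of the shared stretch could have been assigned to either gene.

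In all 3 replicative polymerases, subunits of the same enzyme stood on both sides of 0. Polymerase alpha-primase lays down the RNA-DNA primers. Its catalytic subunit gene Pola1 rose by 1.64-fold (log2 0.71 ± 0.22, DESeq2 adjusted p = 0.00644), while Prim2, the large primase subunit, fell by 0.48 on the log2 scale (SE 0.13, 0.00182), in the authors' deposited table. The accessory subunit gene Pola2 had 0.44 ± 0.22 (DESeq2 adjusted p = 0.109) and the primase catalytic gene Prim1 -0.26 ± 0.14 (0.147) in the authors' deposited table, neither called.

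Polymerase epsilon, which copies the leading strand, was split between its subunits. Pole, the catalytic subunit, fell by 0.73 on the log2 scale (SE 0.20, DESeq2 adjusted p = 0.00125), which is 1.66-fold lower, in the authors' deposited table. Pole2, the accessory subunit, rose by 1.66-fold (log2 0.73 ± 0.25, DESeq2 adjusted p = 0.0122) in the same table deposited by the authors. The 2 log2 values are thus nearly equal in size and opposite in sign. The catalytic gene was the more abundant of the pair, with 382 against 106 normalised counts per kilobase of exon.

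For polymerase delta, which makes the lagging strand, Pold2, an accessory subunit, rose by 2.02-fold (log2 1.01 ± 0.23, DESeq2 adjusted p = 6.31e-05) in the authors' deposited table. Its catalytic partner gene Pold1 had -0.42 ± 0.20 and was not called (DESeq2 adjusted p = 0.0818), and Pold3, a further accessory subunit, had 0.04 ± 0.21, in the authors' deposited table. Pold4, the smallest subunit and not a member, rose to 0.92 ± 0.20 (DESeq2 adjusted p = 4.59e-05) in the authors' deposited table. Of the epsilon subunits outside the module, Pole4 rose to 0.62 ± 0.18 (DESeq2 adjusted p = 0.00283) and Pole3 had -0.07 ± 0.16 in the authors' deposited table. Of these 2 enzymes, the small and accessory subunits Pold2, Pold4, Pole2 and Pole4 were higher, and Pold3 and Pole3 were near 0. The catalytic subunits lay below 0, Pole with a call and Pold1 without. Polymerase alpha-primase differed: its catalytic subunit gene Pola1 rose (log2 0.71 ± 0.22), while the primase catalytic gene Prim1 had -0.26 ± 0.14 without a call.

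The clamp and its loader did not move alike. Pcna, the sliding clamp that tethers polymerases to DNA, rose by 1.40-fold (log2 0.48 ± 0.19, DESeq2 adjusted p = 0.0305) in the authors' deposited table. Of the 5 loader genes only Rfc4 was called, beside 33.5% of all tested genes and 44.3% of those at the members' level. Rfc4 fell by 0.42 on the log2 scale (SE 0.14, DESeq2 adjusted p = 0.00812) in the authors' deposited table. Rfc1, Rfc2, Rfc3 and Rfc5 had -0.18 ± 0.15, -0.04 ± 0.15, -0.10 ± 0.15 and 0.29 ± 0.19 in the authors' deposited table. Rfc4 overlaps Eif4a2, a translation initiation factor gene on the opposite strand with a mean count of 6175, which rose to 1.59 ± 0.13 (DESeq2 adjusted p = 1.02e-31) in the authors' deposited table. What this overlap does to the count of Rfc4 was not tested.

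RPA coats single-stranded DNA at the fork. Its middle subunit gene Rpa2 fell by 0.80 on the log2 scale (SE 0.20, DESeq2 adjusted p = 0.000293), the lowest value of the 47 members in the authors' deposited table. Rpa3, the smallest subunit, rose by 1.29-fold (log2 0.36 ± 0.15, DESeq2 adjusted p = 0.0427), and Rpa1, the large DNA-binding subunit, had 0.22 ± 0.19 without a call, in the authors' deposited table. Of the genes that finish the lagging strand, Fen1, the flap endonuclease, fell by 0.57 on the log2 scale (SE 0.15, DESeq2 adjusted p = 0.00124) in the authors' deposited table. Lig1, the ligase that seals the fragments, had -0.05 ± 0.21 there and was not called.

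**Figure D2:**
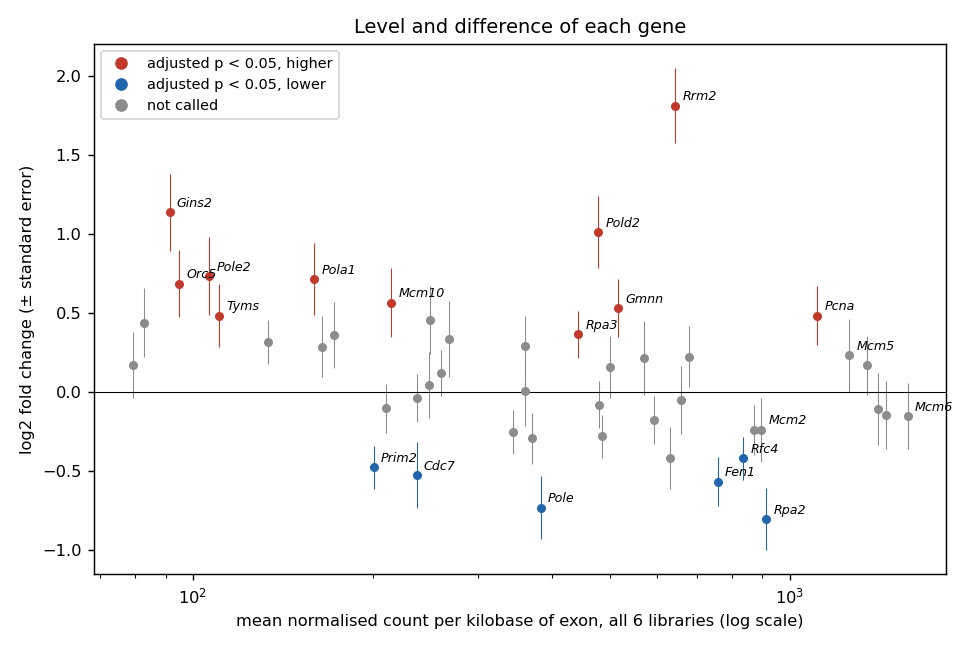
Level of each member (mean normalised count per kilobase of exon over all 6 libraries, log scale) against its log2 fold change with standard error. Red and blue points were called higher and lower, and names are given for called genes and 3 ring genes; the ring genes and Pcna lie at the right end, and Gins2, Orc5, Pole2 and Tyms, which rose, at the left.

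Nucleotide supply held the largest difference of the module. Rrm2, the small subunit of ribonucleotide reductase that carries the enzyme's radical and is made in S phase, rose by 3.51-fold (log2 1.81 ± 0.24, DESeq2 adjusted p = 1.03e-12) in the authors' deposited table. Its 95% interval ran from 2.55-fold to 4.85-fold, and 98.8% of all rows had a lower log2 fold change. Rrm1, the large subunit that pairs with it, had -0.28 ± 0.14 and was not called (DESeq2 adjusted p = 0.0969) in the authors' deposited table. Subunits of this enzyme had the widest range of any complex of the module, 2.09 on the log2 scale. The standard error of Rrm2 ranked at percentile 91.5 of the 200 genes nearest to it in mean count.

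Tyms, thymidylate synthase, which makes dTMP from dUMP, rose by 1.40-fold (log2 0.48 ± 0.20) in the authors' deposited table, with a DESeq2 adjusted p of 0.0452 close to the threshold. Tk1, the thymidine kinase of the salvage route, had 0.29 ± 0.19 and was not called (DESeq2 adjusted p = 0.254) in the authors' deposited table. Stretches of at least 200 bases with at least 95% identity were found in transcripts of 19 other genes for Tyms, among them its pseudogene Tyms-ps. Rrm2 shared 419 such bases with the pseudogene Gm48455, and Pcna 781 with Pcna-ps2. No source used here says how reads that match several places were counted, so these values carry that uncertainty.

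Among members just inside the threshold, Tyms, Rpa3 and Cdc7 had adjusted p-values of 0.0452, 0.0427 and 0.0382 by DESeq2 in the authors' deposited table. Just outside it lay Orc4, Pold1, Dbf4 and Rrm1, at 0.0628, 0.0818, 0.0851 and 0.0969 by DESeq2 in the authors' deposited table. In all, 5 members had an unadjusted p under 0.05 without a call, Pola2 being the fifth.

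Other genes of the same pathways were also called in both directions. Of 33 further replication fork genes, 6 rose and 7 fell (39.4% called, beside 33.5% of all tested genes and 44.3% of those at a mean count of 100 or more), with a median of -0.06. Mcm8, a helicase of recombination and not of the ring, fell to -0.95 ± 0.16 (DESeq2 adjusted p = 2.1e-08) in the authors' deposited table. Wdhd1, which couples the helicase to polymerase alpha, fell to -0.75 ± 0.16 and the checkpoint mediator gene Clspn to -0.61 ± 0.15 in the authors' deposited table (DESeq2 adjusted p = 2.42e-05 and 0.000342). Beside Pold4 and Pole4, the PCNA-binding factor gene Pclaf rose to 0.70 ± 0.24 (DESeq2 adjusted p = 0.0146) in the authors' deposited table. Top2a, the topoisomerase of dividing cells, had 0.33 ± 0.19 and was not called, in the authors' deposited table.

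Of 33 further nucleotide synthesis genes, 10 rose and 6 fell, with a median of 0.14. The share called was 48.5%, beside 33.5% of all tested genes and 44.3% of those at a mean count of 100 or more. Of the 33 genes, 31 had such a level. The uridine-cytidine kinase gene Uck2 rose to 1.07 ± 0.15, Paics of purine synthesis to 1.19 ± 0.20 and Adssl1, an adenylosuccinate synthase of low level here, to 1.94 ± 0.33 in the authors' deposited table, each with a DESeq2 adjusted p of 9.21e-08 or less. Genes that fell were led by the deoxycytidine kinase gene Dck at -0.67 ± 0.13, the dNTP hydrolase gene Samhd1 at -0.74 ± 0.16 and the IMP dehydrogenase gene Impdh1 at -0.53 ± 0.14 in the authors' deposited table. Their DESeq2 adjusted p-values were 4.57e-06, 3.81e-05 and 0.00068. Rrm2b, the alternative small subunit of ribonucleotide reductase, had 0.34 ± 0.20 and no call (DESeq2 adjusted p = 0.183), in the authors' deposited table.

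Lists of mitosis and cell type genes had medians further from 0 than the replication genes. Of 15 mitotic genes, 8 rose and 0 fell by DESeq2 (8 and 0 at an unadjusted p under 0.05), with a median of 0.54. Cdk1 rose to 1.24 ± 0.18, Ccnb2 to 0.78 ± 0.16 and Plk1 to 1.04 ± 0.22 in the authors' deposited table (DESeq2 adjusted p = 2.1e-10, 1.84e-05 and 2.96e-05). Of 16 germ cell markers 14 fell and 0 rose by DESeq2 (14 and 0 at an unadjusted p under 0.05, median -1.63). Of 18 fibroblast markers 7 rose and 0 fell (14 and 0 at an unadjusted p under 0.05, median 0.95). Ranked as above, the standard errors of the fibroblast markers had a median percentile of 95, and 12 of the 18 lay above percentile 90. The share called was 53.3% for mitotic genes, 87.5% for germ cell markers, 38.9% for fibroblast markers and 25% for Sertoli cell markers, against 33.5% of all tested genes and 44.3% of those with a mean count of 100 or more. The germ cell and fibroblast lists held no marker at a mean count of 0. In the authors' deposited table Ddx4, 1 of the germ cell markers, had 4419, and Col1a1, 1 of the fibroblast markers, had 37387. Per kilobase of exon these were 1466 and 5697. Mean counts ran from 88.8 to 14797 over the germ cell list and from 81.4 to 89729 over the fibroblast list. Of Sertoli cell markers 1 of 4 tested rose (Kitl), and Amh had a row without an adjusted p-value. Both macrophage markers with a row rose, Cd68 at a mean count of 134 and Ptprc at only 13.9. The other 2 Sertoli and 3 macrophage markers were not analysed here. The part of any of these cell types in the values of the replication genes was not tested, and their summed levels per population are not known from a table without values per library.

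**Figure D3:**
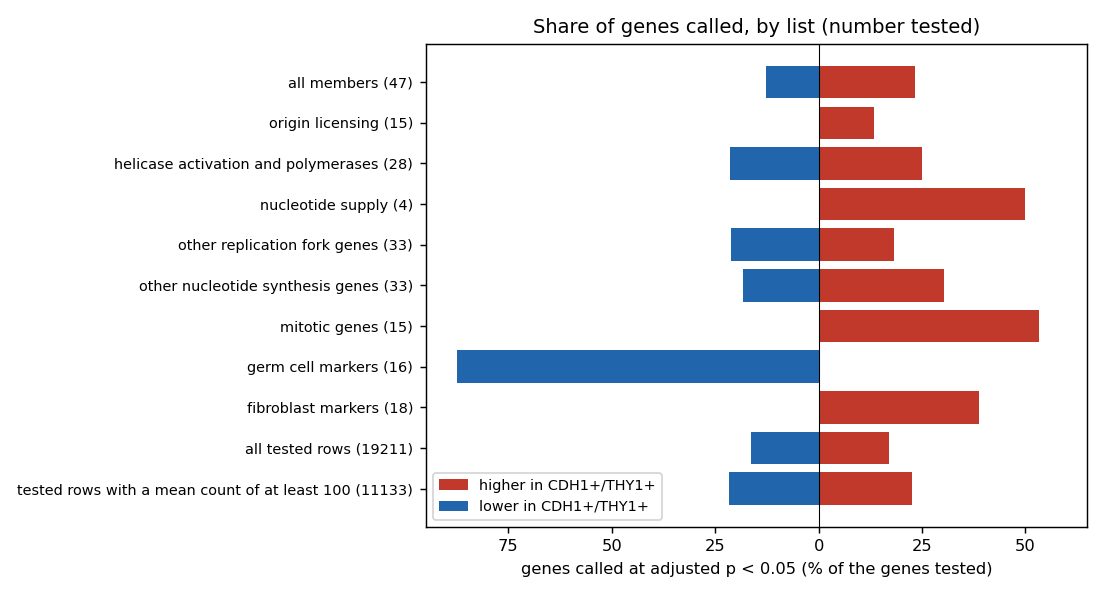
Share of genes called at an adjusted p under 0.05 in each list, as a percentage of the genes tested (number in brackets). Red bars to the right are genes higher and blue bars to the left genes lower in CDH1+/THY1+ cells; all members (23.4% higher, 12.8% lower) resemble all tested genes (17.1% and 16.4%), while germ cell markers extend to 87.5% on the lower side.

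Some members share a start region with another gene. For 14 members a protein-coding gene with a row started within 1000 bases on the opposite strand. How often genes in general have such a neighbour was not counted. Of these 14 neighbours 4 were called, beside 33.5% of all tested genes and 44.3% of those with a mean count of 100 or more. Slc25a40, a mitochondrial carrier gene whose start lies 134 bases from that of Dbf4, rose to 2.08 ± 0.25 (DESeq2 adjusted p = 4.54e-15), beside 0.46 ± 0.22 for Dbf4, in the authors' deposited table. Prkdc, the DNA-dependent protein kinase gene next to Mcm4, fell to -0.56 ± 0.18 (DESeq2 adjusted p = 0.00814) in the authors' deposited table, where Mcm4 had 0.17 ± 0.19. Vps35, next to Orc6, rose to 0.55 ± 0.13 (DESeq2 adjusted p = 8.7e-05), and Smyd4, next to Rpa1, fell to -0.56 ± 0.17 (0.00469), in the authors' deposited table. The signs were the same in 5 of the 14 pairs.

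**Figure D4:**
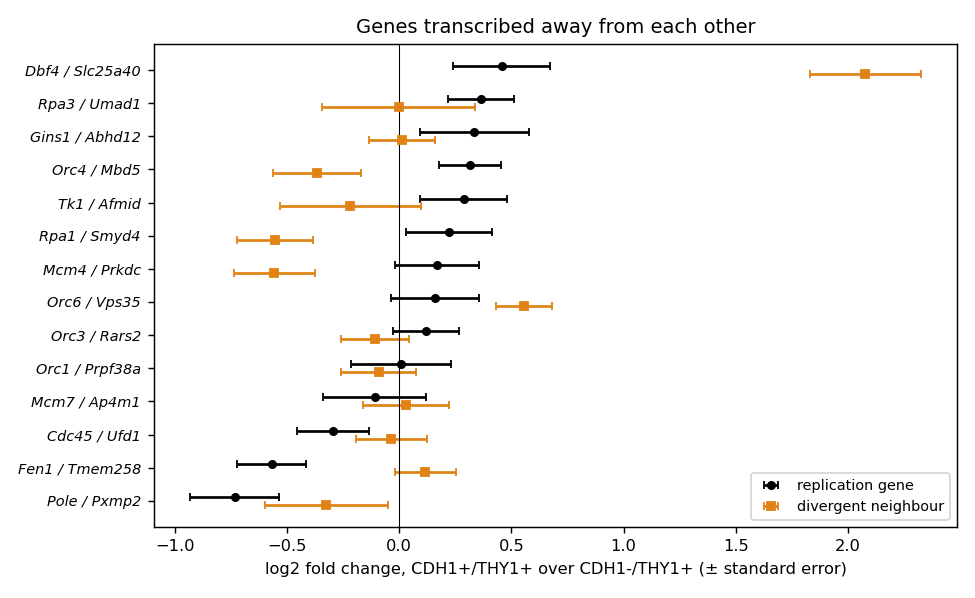
Log2 fold change with standard error of 14 members (black circles) and of the protein-coding gene that starts within 1000 bases on the opposite strand (orange squares), ordered by the member's value. Slc25a40 stands at 2.08 while its neighbour Dbf4 stands at 0.46, and the signs are the same in 5 of 14 pairs.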

How the data were processed

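Total RNA of 6 samples was depleted of ribosomal RNA and sequenced from strand-specific libraries, per the labels' protocols. Trimmomatic 0.32, TopHat2 2.1.1, featureCounts of Subread (1.5.0-p3) and, in R 3.3.1, DESeq2 1.12.3 were used on GRCm38.p4, per the submitters' processing notes. Annotation, counting settings and model are not given in the sources used here. The authors deposited a mean normalised count per gene (a signal scaled by a size factor per library), a log2 fold change with its standard error, a Wald score, a p-value and an adjusted p-value. The largest deposited standard error was 0.639. Such a bound is a property of shrunken fold changes, but whether the authors shrank them is not stated. If they did, changes of genes with few reads are understated. The fold changes, 1.5-fold counts and intervals above would then be those of shrunken values.

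Rows were matched to GENCODE M21 (GRCm38) on the Ensembl identifier without version, which gave 22317 symbols. Levels per kilobase used the joined exon length. Intervals of 95% are the fold change ± the normal quantile times the standard error. Near-identical stretches were found with BLAST 2.17.0. The Benjamini-Hochberg and Benjamini-Yekutieli adjustments were tested on simulated data. Python 3.11.15 and pandas 2.3.3 were used. Of the rows, 3221 had no adjusted p-value. The percentile of a standard error is its rank among the 200 genes of nearest mean count.

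Members and lists were chosen with earlier results of these data known. Every member is accounted for. Of the other lists, the rule named the 3 called genes of smallest adjusted p per direction. Top2a, Rrm2b, Pole3, Ddx4, Col1a1, Kitl, Amh, Cd68 and Ptprc were named after their values were seen. So were the subunits Pold4 and Pole4, overlapping genes and neighbours.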

Additional observations from a re-analysis of the deposited data

How the results depend on the processing

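No paired analysis was possible because the table holds no value per library; for the same reason no library could be left out. For the members, their 3 role groups and the fork, nucleotide and mitotic lists, every count not given here stayed within 1.5 times under the 6 other settings tried. The members' median of 0.16 was 0.16 with a mean count of 100 or more and 0.12 without the largest standard errors. Marker lists of cell types were not run under other settings. Higher members numbered 11, and 5 at an adjusted p under 0.01, 3 after a Benjamini-Yekutieli adjustment (Gins2, Pold2 and Rrm2), 6 with a change of at least 1.5-fold, and 6 without the 13 members that share a near-identical stretch with another transcript, an alternative chosen after seeing the data. Lower members numbered 6, and 2 at 1.5-fold or more (Pole and Rpa2). At the 0.01 threshold, by Benjamini-Yekutieli and at 1.5-fold in turn, licensing genes called higher numbered 1, 0 and 1, and helicase and polymerase genes 3, 2 and 4, with 2 lower at 1.5-fold. Nucleotide supply kept 1 higher gene under each of them and when the adjustment ran over the rows (Rrm2), and 1 (Tyms) once genes above percentile 90 in standard error for their level were left out, which removes Rrm2. Other fork genes had 2 higher at 0.01 and by Benjamini-Yekutieli, 3 without large standard errors, and 3 lower at 1.5-fold. Other nucleotide genes had 3, 3 and 2 lower, and mitotic genes 5 higher by Benjamini-Yekutieli and 5 at 1.5-fold. An adjustment over the rows left 15 of the 17 calls of members and lost Rpa3 and Tyms; the stricter threshold left 10 and Benjamini-Yekutieli 7.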

Other observations

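Members that rose were less abundant than those that fell: their median mean count was 754 over 11 genes, against 1558 over 6 that fell and 1633 over 30 without a call. Across the 47 members Spearman's rho of the log2 fold change with the mean count was -0.45, and with the level per kilobase of exon -0.41, while with exon length it was -0.02. Over 11164 rows whose mean count was 100 or more, the corresponding values were -0.09, -0.04 and -0.08. These are descriptions across genes of the same 6 libraries, in which the mean count enters the fold change, and genes are not independent replicates.

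The 47 members lie on 14 chromosomes. Chromosome 5 holds 10 of them, including 4 of the 5 clamp loader genes, with 2 higher and 2 lower; chromosome 8 holds 6, including 3 of the 4 GINS genes, with 1 higher. Rrm2 and Pole2 are the 2 members on chromosome 12, and both rose. Of all tested genes 17.1% were called higher and 16.4% lower. Of those with a mean count of 100 or more, 22.6% and 21.7% were. Shares per chromosome were not computed, and a link of the calls with a chromosome was not tested.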
